A study of Mus musculus with 6 samples.

Results

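Transforming growth factor beta (TGF-beta) genes were examined in liver RNA-Seq of g*Spns1*-cKO and control mice. The set holds 9 genes chosen by name from the 54532 genes of the deposited table: the ligands *Tgfb1*, *Tgfb2* and *Tgfb3*, the latent binding proteins *Ltbp1* and *Ltbp2*, the receptors *Tgfbr1* and *Tgfbr2*, the inhibitory Smad *Smad7* and the induced matrix gene *Tgfbi*. Each name matched 1 row. RNA from 3 g*Spns1*-cKO and 3 control livers was sequenced after poly-T selection, 1 library per liver. The g*Spns1*-cKO mice were C57BL/6 *Spns1* fl/fl animals with Rosa26Cre-ERT2, a tamoxifen-dependent Cre that acts in the whole body and not in 1 liver cell type. Tamoxifen was given intraperitoneally at 50 mg/kg on postnatal days 11, 13 and 15, and removed exon 3 of *Spns1*, which encodes a lysosomal lysolipid transporter. The methods give *Spns1* fl/fl littermates as controls, while the sample labels call these livers wild type. Whether control mice received tamoxifen, and the age and sex of the mice at collection of these livers, are not given in the sources used here.

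TGF-beta ligands are secreted as latent complexes, in which the propeptide stays bound to the growth factor and is tethered to the matrix by latent TGF-beta binding proteins. Integrins, thrombospondin and proteases release the ligand, which binds the type II receptor TGFBR2, and this in turn recruits and phosphorylates the type I receptor TGFBR1. Smad2 and Smad3 then carry the signal to the nucleus with Smad4, and Smad7 is induced as a feedback inhibitor. In the liver the pathway is known for the activation of hepatic stellate cells, for matrix deposition and for restraint of hepatocyte growth.

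The 3 ligand genes are closely related, so their coding ends are shown to make clear how far reads can tell them apart. The last 90 coding bases before the stop codon are given 5′ to 3′ on the coding strand, from GENCODE M21 transcripts on GRCm38, with capitals where all 3 genes carry the same base. They lie at chr7:25704850-25704939 (plus strand) for *Tgfb1*, chr1:186625451-186625540 (minus strand) for *Tgfb2* and chr12:86057783-86057872 (minus strand) for *Tgfb3*.
Tgfb1: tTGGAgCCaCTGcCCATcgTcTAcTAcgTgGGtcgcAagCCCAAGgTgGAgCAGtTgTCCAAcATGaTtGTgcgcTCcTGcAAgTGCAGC
Tgfb2: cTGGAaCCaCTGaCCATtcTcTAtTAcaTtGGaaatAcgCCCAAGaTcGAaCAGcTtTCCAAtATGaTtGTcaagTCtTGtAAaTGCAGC
Tgfb3: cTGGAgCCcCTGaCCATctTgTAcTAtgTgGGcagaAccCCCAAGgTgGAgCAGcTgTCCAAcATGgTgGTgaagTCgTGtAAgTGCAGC
Of these 90 bases, 58 were the same in all 3 genes. Over the last 300 coding bases, 70.3% of bases were identical between *Tgfb1* and *Tgfb2*, 73.3% between *Tgfb1* and *Tgfb3* and 72.0% between *Tgfb2* and *Tgfb3*, and the longest identical run was 15 bases. No stretch of 50 bases in the transcripts of any of the 9 genes was found in those of another of the 9. *Tgfb3* overlaps *Ttll5*, which had between 226 and 341 counts per library, on the opposite strand over 5149 bases. Its transcripts shared 50-base stretches only with *Gm37804* and *Gm48008*, which had at most 1 count in any library. That comparison covered annotated transcripts only. Whether unspliced *Ttll5* reads were counted for *Tgfb3* was not tested.

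The libraries held between 30350002 and 35295611 counts. CPM below are counts per 1000000 of the library size, scaled by edgeR's TMM method, and a floor of 3 counts corresponded to between 0.0763 and 0.119 CPM, which covers counting error only. Control libraries had TMM factors from 0.834 to 0.873 and g*Spns1*-cKO libraries from 1.16 to 1.18, and with library size as the only scaling the median change over all genes tested, on the log2 scale, was 0.46 in place of 0.014. *Spns1*, the targeted gene, had 1008, 1562 and 875 counts in control and 642, 1175 and 698 in g*Spns1*-cKO livers. Its log2 fold change was -0.87 ± 0.25 (SE, adjusted p = 0.0300). Log2 fold changes throughout are g*Spns1*-cKO over control with their standard error (SE), and adjusted p-values come from the quasi-likelihood test of edgeR, corrected over all genes tested by the Benjamini-Hochberg method. This call was lost with library size only or upper-quartile scaling and without control replicate 2 or g*Spns1*-cKO replicate 1 or 3, with adjusted p between 0.000661 and 0.0910 over the left-out libraries. Hepatocyte markers such as *Alb* and *Apoa1* were abundant in all libraries.

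All 9 genes had enough counts to be tested, and each had a positive log2 fold change. Taking 0.05 as the limit for the adjusted p, 7 of the 9 rose in g*Spns1*-cKO livers, against 21.3% of all 15449 genes tested called in that direction and 41.8% in either direction. None was called lower (background 20.5%), and at an unadjusted p under 0.05 these numbers were 8 higher and 0 lower, against 25.7% and 24.5% of all genes tested. DESeq2 also called 7 higher and 0 lower, against 17.2% and 16.7% of all genes it tested. The median log2 fold change of the 9 genes was 0.91, beside 0.014 for all genes tested. In the same 7 genes, every g*Spns1*-cKO library lay above every control library, which held for 27.1% of all genes tested. With each library left out in turn, between 5 and 8 of the genes passed as higher, against between 15% and 20.2% of all genes tested.

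**Figure D1:**
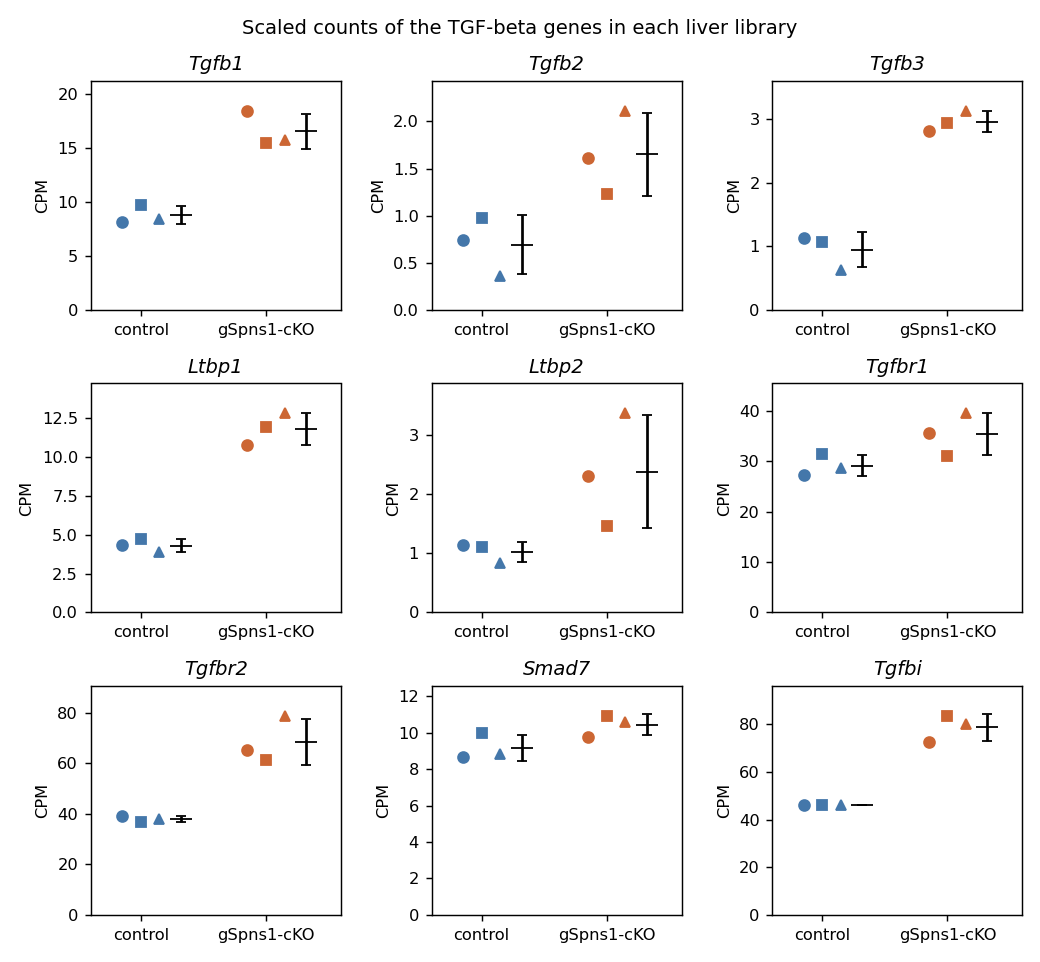
CPM of each TGF-beta gene (vertical axes, from 0) in the 3 control and 3 gSpns1-cKO libraries; each point is 1 library, with marker shapes for replicates 1 (circle), 2 (square) and 3 (triangle), and the black line and bar give mean and SD. The groups are apart in 7 panels and overlap for Tgfbr1 and Smad7.

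All 3 ligand genes rose. *Tgfb1* (ENSMUSG00000002603, chromosome 7, 25687002 to 25705077, plus strand), the ligand best known from fibrotic liver, had 230, 301 and 213 counts in control and 664, 593 and 621 in g*Spns1*-cKO livers. Scaled, these were 8.18, 9.77 and 8.42 CPM against 18.5, 15.5 and 15.8 CPM. The lowest g*Spns1*-cKO library was well above the highest control library, and the log2 fold change was 0.91 ± 0.14 (SE, adjusted p = 0.000562). *Tgfb3* (ENSMUSG00000021253, chromosome 12, 86056745 to 86079041, minus strand), a ligand with roles in palate and lung development, had 1.14, 1.07 and 0.632 CPM in control and 2.81, 2.95 and 3.13 CPM in g*Spns1*-cKO livers. Its log2 fold change of 1.63 ± 0.28 (SE, adjusted p = 0.00137) was the highest of the 9 genes, on 32, 33 and 16 counts against 101, 113 and 123. The g*Spns1*-cKO libraries lay close together and apart from the controls.

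*Tgfb2* (ENSMUSG00000039239, chromosome 1, 186622792 to 186705989, minus strand), a ligand that needs the coreceptor betaglycan for strong binding to TGFBR2, had few reads. It had 21, 30 and 9 counts in control and 58, 47 and 83 in g*Spns1*-cKO livers, or 0.747, 0.974 and 0.356 CPM against 1.61, 1.23 and 2.11 CPM. The groups did not overlap, but the gap between the highest control and the lowest g*Spns1*-cKO library was small. The log2 fold change was 1.23 ± 0.40 (SE, adjusted p = 0.0314). Without control replicate 1 or 3 or g*Spns1*-cKO replicate 3 it was 1.27, 0.92 and 1.02, with adjusted p = 0.0627, 0.0876 and 0.133, so the call rests on each of these libraries.

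Both latent binding protein genes rose. *Ltbp1* (ENSMUSG00000001870, chromosome 17, 75005568 to 75392512, plus strand), whose product tethers the latent complex to the matrix, had 4.34, 4.71 and 3.87 CPM in control and 10.8, 11.9 and 12.8 CPM in g*Spns1*-cKO livers. All g*Spns1*-cKO libraries were above all control libraries, with a log2 fold change of 1.46 ± 0.15 (SE, adjusted p = 7.95e-05), the smallest adjusted p of the 9. *Ltbp2* (ENSMUSG00000002020, chromosome 12, 84783212 to 84876532, minus strand) belongs to the same family, but its product binds fibrillin and not the latent ligand. It had 32, 34 and 21 counts in control and 83, 56 and 132 in g*Spns1*-cKO livers, or 1.14, 1.10 and 0.830 CPM against 2.31, 1.46 and 3.36 CPM. The g*Spns1*-cKO livers differed among themselves, replicate 2 being lowest and replicate 3 highest. The log2 fold change was 1.21 ± 0.35 (SE, adjusted p = 0.0183), and it was 1.07 and 0.87 without control replicate 3 or g*Spns1*-cKO replicate 3 (adjusted p = 0.0668 and 0.107). *D030025P21Rik*, an antisense gene, shares 8.58% of the 50-base stretches of *Ltbp2* transcripts and had at most 2 counts in any library.

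Of the receptors, *Tgfbr2* passed as higher and *Tgfbr1* did not. The difference between their changes was not tested. *Tgfbr2* (ENSMUSG00000032440, chromosome 9, 116084293 to 116175360, minus strand), the ligand-binding type II receptor, had 39.1, 36.7 and 38.0 CPM in control and 65.3, 61.5 and 78.9 CPM in g*Spns1*-cKO livers. The control libraries were nearly alike and all lay below the g*Spns1*-cKO libraries, with a log2 fold change of 0.85 ± 0.12 (SE, adjusted p = 0.000336). *Tgfbr1* (ENSMUSG00000007613, chromosome 4, 47353222 to 47414931, plus strand), the type I receptor kinase, had 27.3, 31.4 and 28.7 CPM against 35.5, 31.1 and 39.5 CPM. Control replicate 2 and g*Spns1*-cKO replicate 2 overlapped, and the log2 fold change of 0.28 ± 0.12 (SE, adjusted p = 0.0804) did not pass. It passed with upper-quartile scaling (0.41, adjusted p = 0.0175), with library size only (0.72, adjusted p = 0.000669), with the filter of at least 10 counts in every library (0.32, adjusted p = 0.0477) and without g*Spns1*-cKO replicate 2 (0.36, adjusted p = 0.0417).

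The ratio of *Tgfbr2* to *Tgfbr1* within a library does not depend on how libraries are scaled. Computed on counts per kb of deposited gene length, it was 1.14, 0.932 and 1.06 in control and 1.47, 1.58 and 1.59 in g*Spns1*-cKO livers, 1.04 ± 0.106 against 1.55 ± 0.0684 (SD, n = 3). The groups did not overlap. No test is given, since the genes were chosen with results of these data known.

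Of the genes that signaling induces, 1 rose and 1 did not pass. *Tgfbi* (ENSMUSG00000035493, chromosome 13, 56609523 to 56639562, plus strand), an extracellular matrix protein named for its induction by TGF-beta, had 46.2, 46.0 and 46.2 CPM in control and 72.6, 83.6 and 80.3 CPM in g*Spns1*-cKO livers. The controls were within 1 CPM of each other, and the log2 fold change was 0.77 ± 0.10 (SE, adjusted p = 0.000256). *Smad7* (ENSMUSG00000025880, chromosome 18, 75367529 to 75395935, plus strand), which blocks the activated type I receptor, had 8.68, 10.002 and 8.81 CPM in control and 9.78, 10.9 and 10.6 CPM in g*Spns1*-cKO livers. The groups overlapped, and the log2 fold change was 0.19 ± 0.13 (SE, adjusted p = 0.295). With library size only it was 0.63 (adjusted p = 0.00370), a setting in which all 9 genes and 47.2% of all genes tested were called higher.

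**Figure D2:**
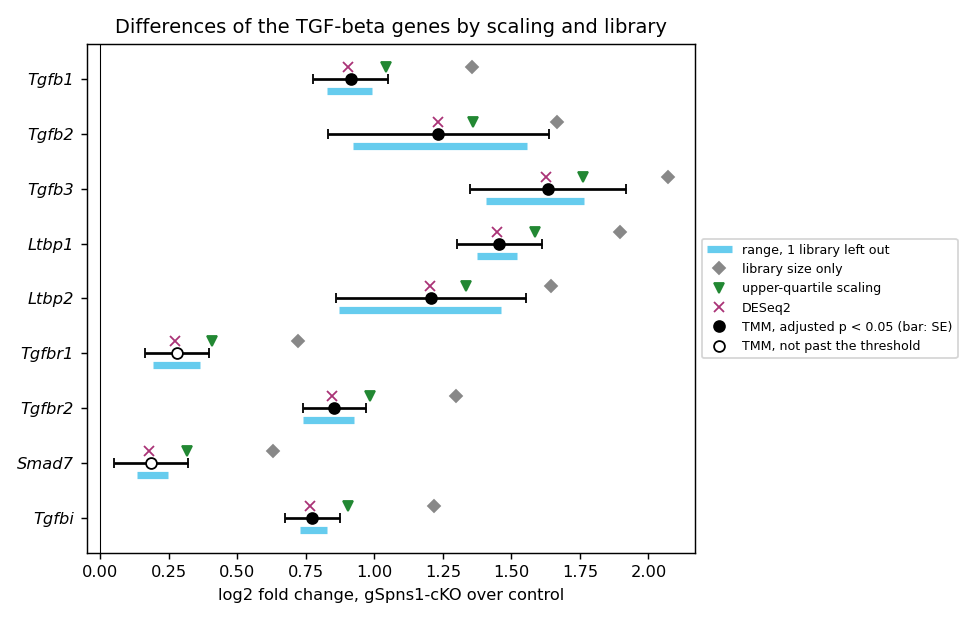
Log2 fold change of gSpns1-cKO over control (horizontal axis) for the 9 genes; black circles with standard errors are the edgeR values under TMM, open where the adjusted p was not under 0.05, blue bars span the values with 1 library left out, and diamonds, triangles and crosses are library size only, upper-quartile scaling and DESeq2. Every symbol lies above 0, and Tgfbr1 and Smad7 lie nearest to it.

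Scaling moved all genes together. Library size only called 7289 genes higher and 970 lower, and upper-quartile scaling 4111 and 2240, where TMM called 3286 and 3166. Under upper-quartile scaling 8 of the 9 genes passed as higher (26.6% of all genes tested), *Smad7* being the exception. The direction of the 9 genes was the same under every scaling tried. In the pathway lists below, library size only left no gene called lower among those for ligand activation, negative regulation and targets, with 14, 10 and 15 called higher.

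Levels were compared between genes only as CPM per kb of deposited gene length. In control livers *Tgfbi* was highest at 12.2 ± 0.0355 (SD, n = 3), followed by *Tgfbr2* at 4.63 ± 0.148 and *Tgfbr1* at 4.46 ± 0.318, whose libraries overlapped. *Smad7* at 2.03 ± 0.161 and *Tgfb1* at 1.74 ± 0.171 also overlapped. *Ltbp1* (0.411 ± 0.0400), *Tgfb3* (0.280 ± 0.0813), *Ltbp2* (0.125 ± 0.0207) and *Tgfb2* (0.120 ± 0.0540) were lowest, the last pair overlapping. In g*Spns1*-cKO livers the order of mean levels differed in that *Tgfb1*, at 3.29 ± 0.326, stood above *Smad7*, at 2.31 ± 0.129. There *Ltbp2* (0.290 ± 0.116) and *Tgfb2* (0.285 ± 0.0767) overlapped, while every other neighbouring pair was apart. The deposited length of *Tgfb1*, 5042 bases, is longer than its longest protein-coding transcript of 2175 bases, so its level per kb is lower than with the transcript length. With transcript lengths, an alternative chosen after seeing the data, *Tgfb1* stood above *Smad7* in control livers too. Their levels there were 4.04 ± 0.396 and 2.14 ± 0.170 CPM per kb, so these genes kept their order. Other genes changed order instead. *Tgfb1* was below *Tgfbr1* (5.06 ± 0.361) in control and above it in g*Spns1*-cKO livers (7.62 ± 0.756 against 6.14 ± 0.727), without overlap in either group. *Tgfbr2* had a lower mean than *Tgfbr1* in control livers (4.69 ± 0.150), with overlap. In g*Spns1*-cKO livers it was above *Tgfbr1*, at 8.47 ± 1.13, without overlap.

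Among the ligands, *Tgfb1* transcripts made up most of the summed counts per kb within each library. Its share was 77.7%, 80.0% and 87.1% in control and 76.8%, 73.9% and 70.8% in g*Spns1*-cKO livers. The lowest control and the highest g*Spns1*-cKO share were 1 percentage point apart or less. The share of *Tgfb3* was 16.1%, 13.1% and 9.75% in control and 17.4%, 20.99% and 20.9% in g*Spns1*-cKO livers, without overlap. *Tgfb2* contributed 5.44% ± 1.98 and 6.39% ± 1.64 (SD, n = 3), and its groups overlapped. With the length of the longest protein-coding transcript, an alternative chosen after seeing the data, the mean *Tgfb1* share was 90.8% in control and 86.3% in g*Spns1*-cKO livers, and that of *Tgfb3* 6.26% and 9.99%.

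**Figure D3:**
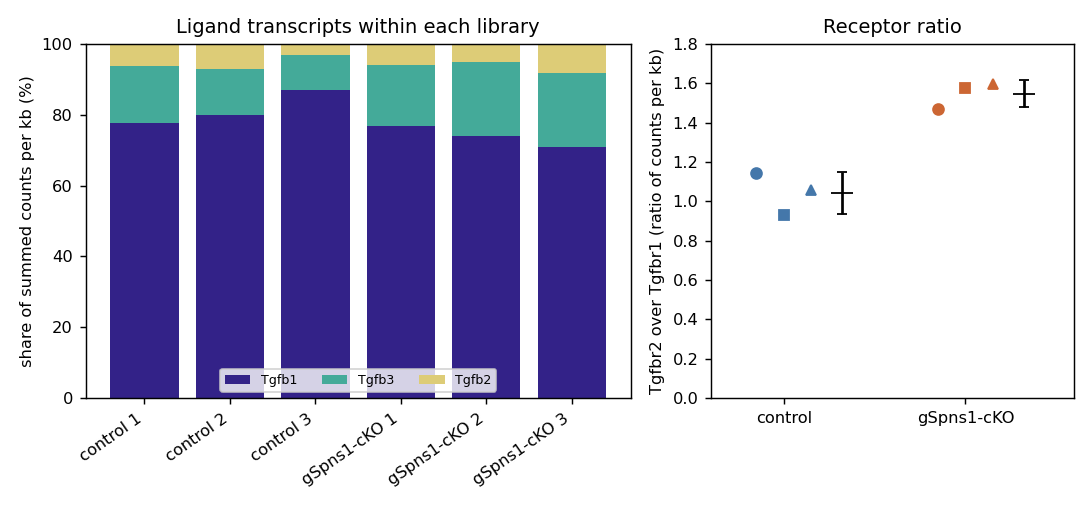
Left, share (percent) of Tgfb1, Tgfb3 and Tgfb2 in their summed counts per kb, 1 bar per library; right, ratio of Tgfbr2 to Tgfbr1 counts per kb by library with mean and SD. Tgfb3 takes between 9.75% and 16.1% of a control bar and between 17.4% and 20.99% of a gSpns1-cKO bar, and the receptor ratio is higher in all 3 gSpns1-cKO libraries.

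Promoter windows of 300 bases around the RefSeq gene start (GRCm38.p6) were searched for CAGAC, the core that Smad proteins bind, on both strands, as were the 2 motifs named after it, none of which contains another. For the TGF-beta genes, 9 windows of 7 genes were counted, and no window of *Tgfb3* or *Smad7* was among them. The match stood in 7 of the 9 windows, beside 49.6% of all 32851 windows. It stood in at least 1 window of 6 genes, but *Ltbp1* and *Tgfbr1* had more than 1 window. No share per gene was computed over all genes. The windows of *Tgfb1*, the most abundant ligand and without a match, of *Tgfb2*, with 2 matches, and of *Ltbp2*, with 3, are shown for genes that rose together, 5′ to 3′ on the gene's strand with the matches in capitals. They lie at chr7:25686752-25687051 (plus strand), chr1:186705940-186706239 (minus strand) and chr12:84876442-84876741 (minus strand).
Tgfb1: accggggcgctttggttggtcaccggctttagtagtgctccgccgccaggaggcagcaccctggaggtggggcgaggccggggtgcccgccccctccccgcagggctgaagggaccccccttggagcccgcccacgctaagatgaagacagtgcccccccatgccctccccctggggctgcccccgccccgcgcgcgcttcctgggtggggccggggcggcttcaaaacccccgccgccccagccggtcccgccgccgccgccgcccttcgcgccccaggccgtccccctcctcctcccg
Tgfb2: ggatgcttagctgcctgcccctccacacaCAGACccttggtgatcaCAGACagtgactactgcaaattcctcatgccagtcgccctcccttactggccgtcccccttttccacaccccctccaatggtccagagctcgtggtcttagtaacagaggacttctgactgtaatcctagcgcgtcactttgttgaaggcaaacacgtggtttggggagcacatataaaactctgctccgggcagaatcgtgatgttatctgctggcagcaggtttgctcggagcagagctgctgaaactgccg
Ltbp2: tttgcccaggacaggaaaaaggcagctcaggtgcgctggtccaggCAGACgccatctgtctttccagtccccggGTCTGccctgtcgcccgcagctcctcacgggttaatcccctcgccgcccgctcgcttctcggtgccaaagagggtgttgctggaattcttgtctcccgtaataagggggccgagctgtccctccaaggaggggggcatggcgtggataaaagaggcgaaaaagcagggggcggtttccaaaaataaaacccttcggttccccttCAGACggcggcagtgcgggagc
At least 2 matches occurred in 16.2% of all windows. The GC box GGGCGG occurred in 4 of the 9 windows, with 6 matches in that of *Tgfb1*, and in 35.7% of all windows. TGANTCA, the AP-1 site, occurred in 0 of the 9 and in 7.81% of all windows.

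The wider pathway was described by gene lists, whose counts stand beside 21.3% of all genes tested called higher, 20.5% called lower and a median log2 fold change of 0.014. Of 17 tested genes of 18 that release, activate or anchor the latent ligand, 11 rose and 2 fell, with a median log2 fold change of 0.96. The 2 that fell were *Furin*, with -0.34 (adjusted p = 0.0438), and *Plg*, with -0.51 (adjusted p = 0.0291). With upper-quartile scaling, no gene of this list was called lower. *Thbs1*, which encodes the activator thrombospondin 1, had 0.889, 0.422 and 0.593 CPM in control and 3.84, 3.88 and 4.43 CPM in g*Spns1*-cKO livers. Its log2 fold change was 2.67 ± 0.30 (SE, adjusted p = 0.000112). *Mmp2*, a matrix metalloproteinase, rose from 2.75 ± 0.771 to 17.6 ± 0.173 CPM (SD, n = 3), also by 2.67 ± 0.19 (SE, adjusted p = 8.75e-06). *Itgb8*, the beta subunit of an activating integrin, and *Fbn1*, which encodes fibrillin 1, had log2 fold changes of 1.92 (adjusted p = 0.00779) and 1.65 (adjusted p = 0.000847). *Itgb6*, the partner subunit of another activating integrin, was not tested, with 0 counts in each control library and 8, 6 and 8 counts in g*Spns1*-cKO libraries.

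Of 8 tested genes of 9 for coreceptors and receptor partners, 3 rose and none was called lower, with a median of 0.46. *Acvrl1*, an endothelial type I receptor, rose by 1.16 ± 0.22 on the log2 scale (SE, adjusted p = 0.00206). *Tgfbr3*, which encodes betaglycan, had 9.78, 12.5 and 11.2 CPM in control and 14.98, 21.1 and 20.2 CPM in g*Spns1*-cKO livers, and its log2 fold change was 0.75 (adjusted p = 0.00403). *Bambi*, a decoy receptor, had 0.79 (adjusted p = 0.0401), with adjusted p between 0.0271 and 0.123 over the left-out libraries. *Eng*, an endothelial coreceptor, had 65.8 ± 2.38 CPM in control and 69.8 ± 3.13 CPM in g*Spns1*-cKO livers, and did not pass under TMM (0.09, adjusted p = 0.515). With library size only, all 8 tested genes of this list were called higher.

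Of the 7 other Smad genes, 1 passed as higher and none as lower, with a median of -0.096. *Smad2*, *Smad3* and *Smad4*, the effectors of the pathway, had log2 fold changes of -0.10, -0.09 and -0.12 (adjusted p = 0.704, 0.744 and 0.443). Their sign turned with library size only, to 0.34, 0.36 and 0.33, and with upper-quartile scaling, to 0.03, 0.04 and 0.01. *Smad6*, an inhibitory Smad of the BMP branch, had 0.60 ± 0.21 (SE, adjusted p = 0.0412). Its call was lost without control replicate 1 or 3 or g*Spns1*-cKO replicate 1 or 3, with adjusted p up to 0.125. Between 0 and 2 of the 7 genes passed with each library left out.

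Of 14 tested genes of 15 listed as negative regulators, not all of them purely so, 7 rose and 3 fell, with a median of 0.57. *Dcn*, which encodes the ligand-binding proteoglycan decorin, rose from 113 ± 4.55 to 335 ± 55.9 CPM (SD, n = 3), by 1.57 ± 0.14 on the log2 scale (SE, adjusted p = 3.83e-05). The related *Bgn*, for biglycan, had 0.96 (adjusted p = 0.000203). *Pmepa1*, itself induced by the pathway, and *Skil*, a Smad corepressor, had 1.51 (adjusted p = 0.000715) and 0.97 (adjusted p = 0.00119). The 3 that fell were *Smurf1*, *Smurf2* and *Ppm1a*, with -0.67, -0.42 and -0.61 (adjusted p = 0.00264, 0.00589 and 0.00177).

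Of 20 tested genes of 23 for transcriptional targets, 10 rose and 1 fell, with a median of 1.20. Among the genes that passed, those with the largest changes were *Eln*, for elastin, *Snai1*, a repressor of epithelial genes, *Cdkn1a*, a cell cycle inhibitor that p53 also induces, and *Tgfb1i1*. *Eln* had 0.925, 1.53 and 0.514 CPM in control and 8.17, 7.43 and 8.01 CPM in g*Spns1*-cKO livers, and its log2 fold change was 2.97 ± 0.31 (SE, adjusted p = 7.5e-05). *Snai1*, *Cdkn1a* and *Tgfb1i1* had 2.08, 1.97 and 1.45, with adjusted p = 0.00254, 0.000731 and 0.00243. Without control replicate 2, *Snai1* had 2.68. The gene called lower was *Nox4*, with -0.81 (adjusted p = 0.00215). In all, 9 tested genes of the list did not pass, among them *Junb*, *Cyr61* and *Fn1*. These had 0.0064, 0.21 and -0.38 (adjusted p = 0.991, 0.469 and 0.0948).

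*Ctgf* and *Col1a1*, also well known targets, were more variable between libraries. *Ctgf*, for a matricellular growth factor, had 10.7, 13.6 and 8.26 CPM in control and 17.8, 41.1 and 18.9 CPM in g*Spns1*-cKO livers, and its log2 fold change was 1.25 (adjusted p = 0.0492). Replicate 2 was the highest g*Spns1*-cKO library. *Col1a1* had 5.05, 11.6 and 5.02 CPM against 27.7, 11.7 and 19.4 CPM, and its log2 fold change was 1.43 (adjusted p = 0.0628), which did not pass. The call of *Ctgf* was lost without control replicate 1, 2 or 3 or g*Spns1*-cKO replicate 3, with adjusted p of at most 0.138. *Col1a1* passed without control replicate 2 (1.95, adjusted p = 0.0131) or g*Spns1*-cKO replicate 2 (1.69, adjusted p = 0.0423), with DESeq2 (adjusted p = 0.0267), with library size only (1.86, adjusted p = 0.0230) and with upper-quartile scaling (1.55, adjusted p = 0.0480). Without g*Spns1*-cKO replicate 3, 7 genes of the list passed in either direction, and DESeq2 called 17.

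The activin and BMP branch holds other ligands of the superfamily with receptors, regulators and target genes. Of 27 tested genes of 30, 12 rose and 4 fell, with a median of 0.42. *Inhbe*, an activin subunit made by hepatocytes, fell from 47.0, 55.4 and 65.5 CPM to 18.2, 12.7 and 10.3 CPM, and its log2 fold change was -2.03 ± 0.22 (SE, adjusted p = 0.000246). *Hamp2*, a hepcidin gene, had 5.51, 1.59 and 2.85 CPM against 31.9, 135 and 72.1 CPM, and its log2 fold change was 4.59 (adjusted p = 0.0136). Its paralog *Hamp* had -0.70 (adjusted p = 0.174) and did not pass. How far reads can tell *Hamp2* from *Hamp* was not tested, so the counts of *Hamp2* may be uncertain. *Fst*, for the activin-binding follistatin, and *Gdf15*, a stress-induced factor, had 2.07 each (adjusted p = 0.0282 and 0.0218). Without control replicate 1, *Fst* had 2.76, and without g*Spns1*-cKO replicate 2, *Hamp2* had 3.98. The call of *Hamp2* was lost without control replicate 3, that of *Fst* without control replicate 3 or g*Spns1*-cKO replicate 3, and that of *Gdf15* without control replicate 1 or 3 or g*Spns1*-cKO replicate 3, with adjusted p of at most 0.0934. Keeping all genes with at least 1 count in any library, *Fst*, *Gdf15* and *Ctgf* had adjusted p = 0.0594, 0.0727 and 0.142.

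**Figure D4:**
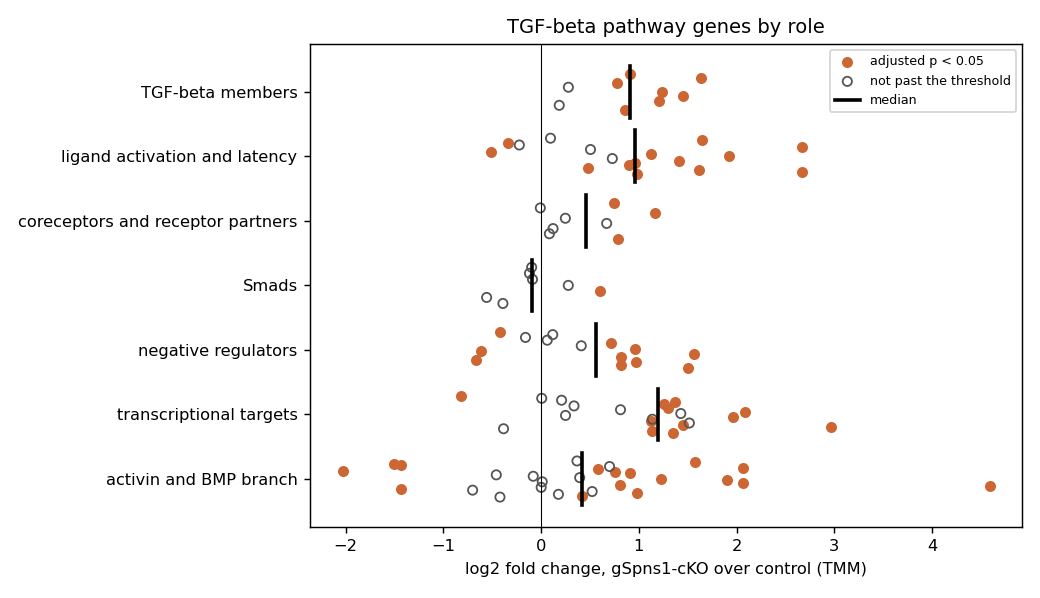
Log2 fold change of gSpns1-cKO over control under TMM (horizontal axis) for each tested gene of 7 groups by role; filled points had an adjusted p under 0.05 and black lines are group medians. The median of the other Smad genes, at -0.096, lies near 0, while those of the 9 TGF-beta genes and of the transcriptional targets are 0.91 and 1.20.

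Markers of other cell types moved with these genes. In whole liver, a change in the number of cells of a type and a change in RNA per cell cannot be told apart. Of 10 macrophage and Kupffer cell markers 10 rose, and their summed level was between 229 and 364 CPM in control and between 847 and 1251 CPM in g*Spns1*-cKO livers. All 6 markers of monocyte-derived and lipid-associated macrophages rose, from between 56.3 and 72.0 CPM to between 295 and 372 CPM summed. Of 10 stellate cell and fibroblast markers 6 rose, and the sums were between 232 and 280 CPM and between 382 and 434 CPM. Of 8 endothelial markers 5 rose, with sums between 208 and 226 CPM and between 280 and 331 CPM. Some genes stand in both a marker list and a pathway list. Examples are *Col1a1*, a stellate cell marker and a target, and *Eng*, an endothelial marker and a coreceptor. The lists are therefore not independent. All 5 tested cholangiocyte markers of 6 rose, from between 5.55 and 6.76 CPM to between 23.4 and 32.5 CPM summed. Of 8 hepatocyte markers 5 fell, from between 103310 and 117800 CPM to between 59969 and 72504 CPM summed. With library size only, 10 of 10 stellate cell, 8 of 8 endothelial and 1 of 8 hepatocyte markers were called higher and 2 hepatocyte markers lower.

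Blood cell markers were low in both groups. The 7 T, NK and B cell markers summed to between 3.79 and 4.87 CPM in control and between 5.57 and 6.07 CPM in g*Spns1*-cKO livers, with 1 of 7 higher and 1 lower. Of 4 tested neutrophil markers of 6, 3 rose, with sums of at most 4.45 CPM and 10.8 CPM. *Ly6g* was not tested, with 0, 2 and 0 counts in control and 0 counts in all g*Spns1*-cKO livers. Platelets are a known store of TGF-beta 1. The 6 platelet and megakaryocyte markers summed to between 4.19 and 6.92 CPM in control and between 5.42 and 6.11 CPM in g*Spns1*-cKO livers, with overlap, and *Gp1bb* had 0 counts in every library. Of the 2 that could be tested, *Pf4*, for platelet factor 4, rose from 0.415 ± 0.102 to 2.02 ± 0.499 CPM (SD, n = 3), by 2.27 ± 0.36 on the log2 scale (SE, adjusted p = 0.000822). *Itga2b*, an integrin subunit that took most of the sum, had a log2 fold change of -0.62 (adjusted p = 0.0580) and did not pass. With library size only these sums were at most 6.03 CPM in control and at least 6.27 CPM in g*Spns1*-cKO livers, without overlap. The part of these cell types in the levels of the TGF-beta genes was not tested.

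**Figure D5:**
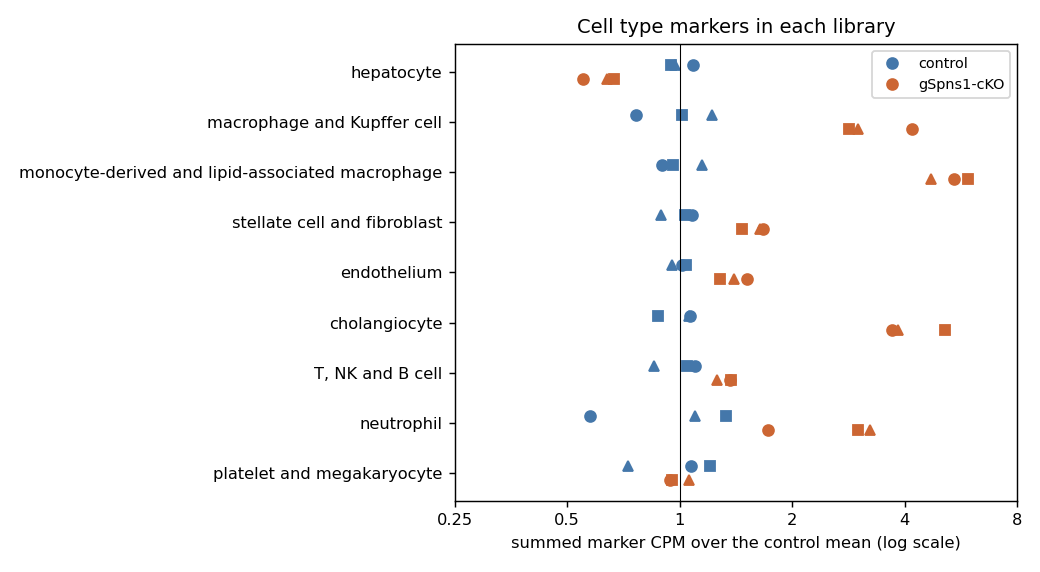
Summed CPM of each marker list divided by its mean in the 3 control libraries (horizontal axis, log scale), 1 point per library, with marker shapes for replicates. Macrophage and cholangiocyte sums lie to the right of the controls in all 3 gSpns1-cKO libraries, hepatocyte sums lie to the left, and platelet sums overlap under the TMM scaling shown but not with library size only.

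The genes whose log2 CPM followed each ligand most closely over the 6 libraries were taken from 12908 genes averaging 1 CPM or more. They were *Igfbp7* and *Egflam* for *Tgfb1* (Pearson's r = 0.998 for each), *Sgce* and *Gm20257* for *Tgfb2* (0.995 and 0.991) and *Cyp1b1* and *P3h3* for *Tgfb3* (0.998 for each). These correlations are a description of 6 libraries that share the difference between the groups, and the genes were picked as the highest of many. The log2 fold changes of *Igfbp7*, *Egflam*, *Cyp1b1* and *P3h3* were 1.06, 2.17, 2.06 and 0.85, all past the threshold, as were those of *Sgce* and *Gm20257*, at 0.76 and 1.12 (adjusted p = 0.0269 and 0.0271). The last pair lost their calls without g*Spns1*-cKO replicate 1 or 3, and *Gm20257* also without control replicate 1 or 3, with adjusted p of at most 0.105.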

How the data were processed

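Bulk liver RNA-Seq counts were analysed for 3 libraries of each genotype, grouped by the sample titles. The authors deposited 1 table with raw counts per gene and library, made from libraries that were not pooled. The submitters' processing notes list fastp, HISAT2 2.0.5, featureCounts 1.5.0-p3 and mm10; whether counting used strand is not given in the sources used here. The deposited table also holds FPKM values per library, a signal per group (the authors' mean of scaled counts), and the log2 fold change and p-value of the authors' own comparison; none of these was used. The deposited gene length served for levels per kb. Of the genes, 54409 were found in GENCODE M21, 98.3% with the same coordinates, and so were all 9 TGF-beta genes.

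Counts were tested in R 4.3.3 with edgeR 4.0.16 (filterByExpr, TMM, robust quasi-likelihood test, no covariate, Benjamini-Hochberg over 15449 genes, threshold 0.05). The standard error is the size of the log2 fold change over the square root of F. The labels name separate livers, and p-values measure the spread between 3 libraries a group; an exact permutation test of 3 against 3 cannot go below p = 0.1. Replicates of a group differed by a chi-square of at least 38.8 per gene, above sampling noise. The edgeR fit was tested on simulated counts with known changes in a small part of the genes. That simulation held no shift in scaling factors between the groups, unlike these data, and the other steps were not simulated. Alternatives were DESeq2 1.42.0, other scalings and filters, a replicate block and leaving out each library; transcript length for the ligand shares and levels was added after seeing the data.

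The 9 genes and all lists were chosen with earlier results of these data known, and lists are described by counts and medians without a set test. Named genes are the 9, *Spns1*, up to 4 called genes per pathway list by absolute log2 fold change, *Tgfbr3*, *Eng*, *Smad2*, *Smad3*, *Smad4*, *Ctgf* and *Col1a1*, markers at 0, overlapping genes, and the 2 genes most like each ligand. *Itgb6*, *Furin*, *Plg*, *Pf4*, *Itga2b*, *Alb*, *Apoa1*, *Hamp*, *Nox4*, *Junb*, *Cyr61*, *Fn1*, *Smurf1*, *Smurf2* and *Ppm1a* were named after their values were seen. A gene that the rule selects is not reported here. Promoter windows are from RefSeq GRCm38.p6.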

Additional observations from a re-analysis of the deposited data

How the results depend on the processing

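No alternative changed the sign of any of the 9 TGF-beta genes, and *Tgfb1*, *Tgfb3*, *Ltbp1*, *Tgfbr2* and *Tgfbi* passed in all 13. Of 556 alternative log2 fold changes over all genes followed, 488 kept direction and side of the threshold, 48 no longer passed, 11 newly passed and 9 changed sign. With library size only, *Spns1* had -0.43 and did not pass, *Tgfbr1* 0.72 and *Smad7* 0.63 passed, 8 receptor partners and 3 Smad genes were called, and *Smad2*, *Smad3* and *Smad4* turned to 0.34, 0.36 and 0.33. With upper-quartile scaling, *Spns1* had -0.74 and did not pass, *Tgfbr1* 0.41 passed, 5 receptor partners and 2 Smad genes were called, and *Smad2*, *Smad3* and *Smad4* turned to 0.029, 0.041 and 0.014. In these data, the median log2 fold change over all genes tested was 0.46 with library size only and 0.14 with upper-quartile scaling. Under TMM it was 0.014. DESeq2 called 17 transcriptional targets, the filter of at least 1 count in any library 2 Smad genes, and the filter of at least 10 counts in every library 2 Smad genes and *Tgfbr1* (0.32); the cause was not tested. *Tgfb2* could not be tested under the last filter, since control replicate 3 had 9 counts.

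With each library left out, *Tgfb2* lay between 0.92 and 1.56, *Ltbp2* between 0.87 and 1.46, *Tgfbr1* between 0.19 and 0.36 and *Spns1* between -1.18 and -0.68. Between 0 and 2 Smad genes and between 7 and 15 transcriptional targets were called, *Smad2* lay between -0.34 and 0.043 and *Smad3* between -0.32 and 0.048, positive without g*Spns1*-cKO replicate 3 for *Smad2* and without control replicate 3 (0.045) or g*Spns1*-cKO replicate 2 for *Smad3*. The low counts of *Tgfb2* and *Ltbp2* limit what this depth can show for them. *Ctgf* had adjusted p = 0.0501 under RLE scaling. Without division by length, the *Tgfb1* share was 84.5% and 78.2% and the receptor ratio 1.31 and 1.94 in control and g*Spns1*-cKO livers, and with transcript length the ratio was 0.930 and 1.38.

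Replicate numbers were not taken as pairs. Deviations from the group means correlated at 0.037, 0.033 and -0.028 for the same numbers, and control replicate 3 correlated best with g*Spns1*-cKO replicate 2 (0.032). With the replicate block, 6 of the 9 genes passed as higher, beside 20% of all genes tested, and *Tgfb2* had 1.25 (adjusted p = 0.0611). *Hamp2* and *Gdf15* had adjusted p = 0.0896 and 0.0669, and *Sgce* and *Gm20257* 0.0551 and 0.0521. Other calls became stronger with the block. *Spns1* had -0.90 ± 0.11 (SE, adjusted p = 0.000679), and *Fst* and *Ctgf* had adjusted p = 0.000274 and 0.00143.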
